A study of Mus musculus and Homo sapiens with 81 samples.

Results

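LGR5, ASCL2, AXIN2, CFTR, CDX2, CDH17, VIL1, KRT20 and ANXA10 are genes of colon stem cells and of colon differentiation, 9 of the 23227 genes in the HT29 count table, found there by symbol. They were chosen by their measured levels in these 4 HT29 groups, so their HT29 values are given as a description. Calls for them in HT29 are counted below but are not read as tests. HT29 is an established human colorectal adenocarcinoma line that carries a mutant APC. The cells expressed Cas9 and received a lentivirus with either the non-targeting guide Bro4 (control) or the guide labelled Ptpn2sg3 (labelled Ptpn2ko, called Ptpn2-null here), against the gene of a phosphatase that dampens interferon signalling through JAK and STAT proteins. Each genotype was given vehicle (PBS with 0.1% BSA) or 100 ng/mL interferon-gamma (IFNg) for 48 h, with 2 RNA-seq libraries in each of the 4 groups.

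In the crypts of the colon, Wnt signals stabilise beta-catenin, which keeps stem cells dividing at the crypt base. LGR5, ASCL2 and AXIN2 are transcribed under that signal. As cells move up the crypt they lose the stem cell genes and gain those of absorptive and secretory cells, under intestinal transcription factors such as CDX2 and HNF4A. KRT20, VIL1 and CDH17 mark differentiating or differentiated epithelium of the intestine. CFTR is a chloride channel of the intestinal epithelium, and ANXA10 is an annexin best known from gastric epithelium.

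The HT29 libraries held 6848609 to 9605776 counts, and 12555 genes passed the filter on low counts. The targeted gene PTPN2 had a lower transcript level in the Ptpn2-null groups. It held 27.9 and 28.9 CPM (counts relative to the TMM-scaled library total) in control cells under vehicle against 15.4 and 16.7 in Ptpn2-null cells, and 39.8 and 40.2 against 26.5 and 27.6 under IFNg. The log2 differences were -0.82 ± 0.11 and -0.57 ± 0.10 (± SE, adjusted p = 7.3e-08 and 4.9e-06, edgeR's quasi-likelihood test, Benjamini-Hochberg adjusted across every gene tested in the line, as for each adjusted p here). Protein loss was not measured, and since each genotype is 1 guide, an effect of PTPN2 and any other way in which the guide-carrying cells differ cannot be told apart. The labels do not say that replicates were separate cultures, so a p-value reflects only how these libraries vary, which can be technical variation. Control IFNg replicate 1 carries a lung cancer cell type label beside its HT29 title. Of the lung markers, NKX2-1 and SFTPC were at 0 counts in it and in the other HT29 libraries, and the summed CPM of the 6 lung markers in the control IFNg group was 0.428 to 0.581; in the Ptpn2-null IFNg group it was 6.79 to 9.17, mostly SFTPA1, and in the vehicle groups at most 1.59. The summed CPM of these 6 markers was 0.98 to 2.02 in A549, the lung line of the series, so they do not tell A549 from HT29. KRT20 held 3449 counts in the library with the lung label and at most 7 in any A549 library. Of 10 colon epithelium markers, EPCAM, KRT20, LGALS4, HNF4A and VIL1 were present in every HT29 library. CDX1, CDX2, CDH17, GPA33 and FABP1 did not exceed 14 counts in any HT29 library.

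The TMM scaling factors of the 4 IFNg libraries (0.898 to 0.919) lay apart from those of the 4 vehicle libraries (1.10), and the 10 most abundant genes took 4.17 to 4.69% of the counts under IFNg against 2.66 to 2.72% under vehicle. Scaling by library totals alone moved the median log2 response of all tested genes from -0.0047 to -0.27 in control cells and from -0.04 to -0.32 in Ptpn2-null cells. The share of called genes that were higher under IFNg moved with it, from 51.8% to 27.2% and from 49.2% to 28%. Changes under IFNg are therefore relative to the bulk of genes, and those smaller than this shift depend on the scaling.

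The receptor gene LGR5 was nearly absent after IFNg in both genotypes. LGR5 encodes the R-spondin receptor that marks crypt base stem cells. Its level was 34.2 and 33.2 CPM in control cells under vehicle and 1.89 and 2.42 under IFNg (258 and 274 counts against 13 and 17). In Ptpn2-null cells it was 36.3 and 41.5 CPM under vehicle and 1.51 and 1.85 under IFNg. The stimulated and unstimulated groups did not overlap in either genotype, and the highest IFNg library lay far below the lowest vehicle library. The log2 difference was -3.96 ± 0.19 in control and -4.53 ± 0.19 in Ptpn2-null cells (n = 2 per group). Between genotypes it was 0.20 ± 0.10 under vehicle and -0.38 ± 0.39 under IFNg. In libraries of whole cultures, fewer cells with a transcript and less transcript per cell cannot be told apart.

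ASCL2 moved the other way from LGR5, from a low level. ASCL2 is a basic helix-loop-helix factor of intestinal stem cells and a Wnt target. It held 2.79 and 2.42 CPM in control cells under vehicle and 6.82 and 4.71 under IFNg. Ptpn2-null cells held 1.57 and 2.53 CPM under vehicle and 9.06 and 7.72 under IFNg. Both IFNg groups lay above both vehicle groups, and the Ptpn2-null IFNg libraries lay above the control IFNg libraries. The log2 difference with IFNg was 1.14 ± 0.29 in control and 2.06 ± 0.27 in Ptpn2-null cells, on 15 to 78 counts per library. The difference of these responses was 0.92 ± 0.42.

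AXIN2, a scaffold of the complex that degrades beta-catenin and a feedback inhibitor of the Wnt pathway, was higher in only 1 of the 4 groups. Control cells held 87.4 and 97.0 CPM under vehicle and 93.5 and 96.5 under IFNg. Ptpn2-null cells held 96.3 and 92.3 CPM under vehicle and 144 and 145 under IFNg. The control groups overlapped, as did the vehicle groups of the genotypes, while both Ptpn2-null IFNg libraries lay above the other 6. The log2 difference with IFNg was 0.04 ± 0.07 in control cells and 0.62 ± 0.06 in Ptpn2-null cells. With library totals in place of TMM the same differences for AXIN2 were -0.22 and 0.33, so the direction in control cells turned and that in Ptpn2-null cells did not. The difference between genotypes under IFNg, 0.61 ± 0.06, did not rest on that choice: it was 0.58 to 0.63 over 14 alternative settings.

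**Figure D1:**
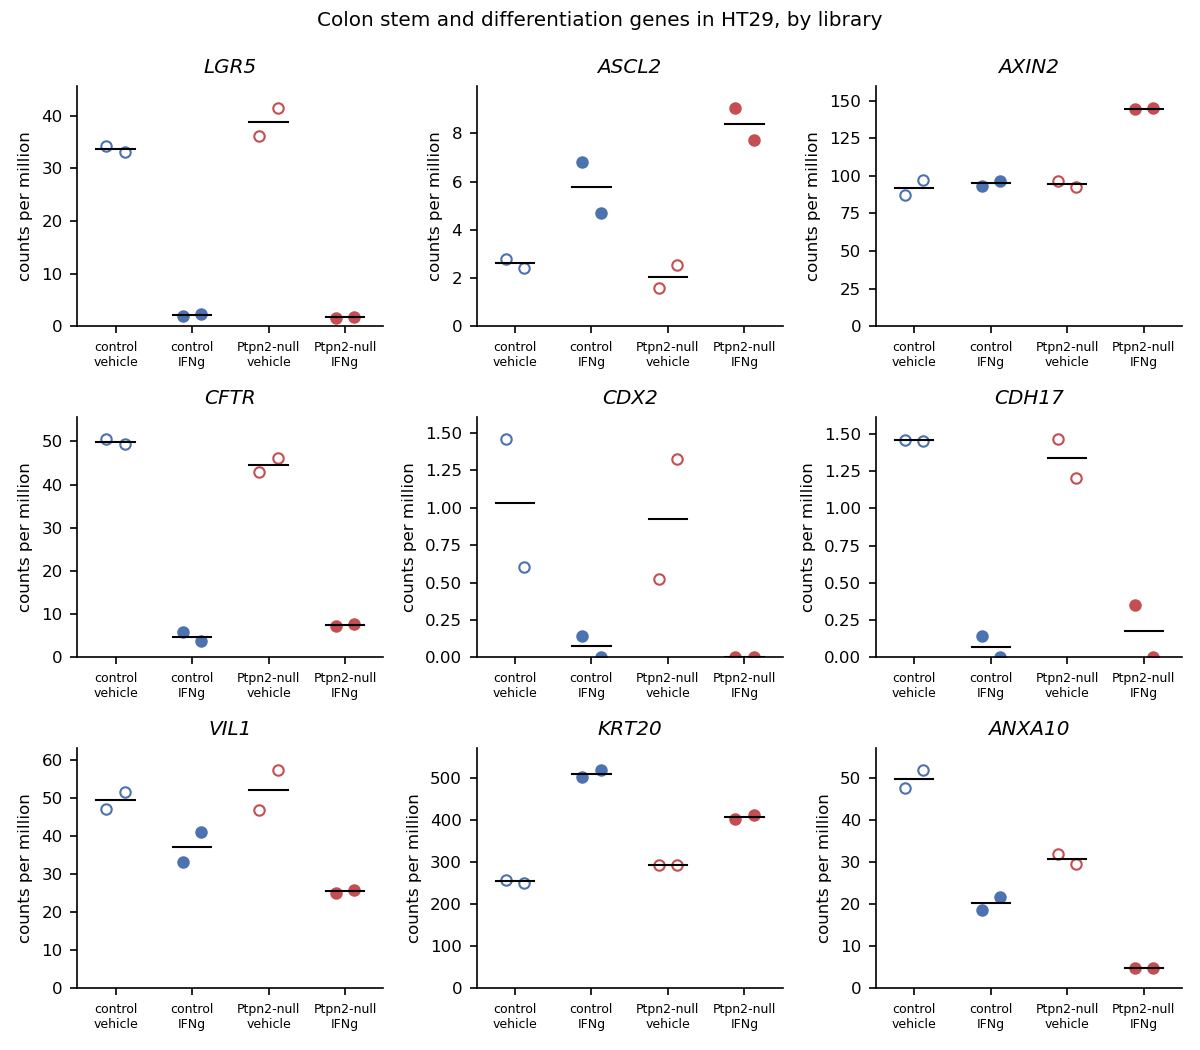
Each panel plots a gene's CPM (linear axis from 0) in the 8 HT29 libraries; open points are vehicle, filled points IFNg, blue control and red Ptpn2-null, and the bar is the mean of 2 libraries. For LGR5, CFTR, CDX2 and CDH17 all 4 IFNg libraries lay below every vehicle library. AXIN2 stood at 144 and 145 in the Ptpn2-null IFNg libraries and at 97.0 or less in the others.

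CDX2 and CDH17, a homeobox factor that sets intestinal identity and the liver-intestine cadherin, were close to the detection limit throughout. CDX2 had 11 and 5 counts in control cells under vehicle, 1 and 0 under IFNg, 5 and 11 in Ptpn2-null cells under vehicle, and 0 and 0 under IFNg. CDH17 had 11 and 12 counts, 1 and 0 counts, 14 and 10 counts, and 3 and 0 counts in the same order. No IFNg library reached the level of any vehicle library for either gene. Per scaled count, CDX2 was 14.1-fold lower with IFNg in control cells (95% counting interval 2.19 to 591, exact binomial, counting error only) and at least 4.51-fold lower in Ptpn2-null cells, taking 3 counts in the group as the detection floor. CDH17 was 20.3-fold lower (3.29 to 835) in control and 6.76-fold lower (2.05 to 35.1) in Ptpn2-null cells. Both genes passed the filter through their vehicle groups alone, and at this depth no difference between genotypes under IFNg was detectable.

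CFTR, the cAMP-regulated chloride channel of the intestinal epithelium, followed LGR5 in direction. It held 50.6 and 49.3 CPM in control cells under vehicle, 5.81 and 3.71 under IFNg, 42.9 and 46.1 in Ptpn2-null cells under vehicle, and 7.20 and 7.72 under IFNg. IFNg and vehicle groups did not overlap, and under IFNg both Ptpn2-null libraries lay above both control libraries. The log2 difference with IFNg was -3.39 ± 0.15 in control and -2.58 ± 0.13 in Ptpn2-null cells. Their difference was 0.81 ± 0.24, and it was 0.52 without control IFNg replicate 2 and 1.20 without control IFNg replicate 1, the 2 libraries of that group with 26 and 40 counts.

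VIL1, the actin-bundling protein villin of microvilli, was lower under IFNg by less. Control cells held 47.3 and 51.8 CPM under vehicle and 33.2 and 41.1 under IFNg. Ptpn2-null cells held 47.1 and 57.5 CPM under vehicle and 25.2 and 25.9 under IFNg. The groups did not overlap by treatment, and the vehicle groups of the genotypes did. The log2 difference was -0.42 ± 0.10 in control and -1.03 ± 0.10 in Ptpn2-null cells.

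KRT20, an intermediate filament keratin of differentiated surface epithelium, was higher under IFNg. It held 257 and 250 CPM in control cells under vehicle, 501 and 518 under IFNg, 293 in each Ptpn2-null vehicle library, and 401 and 412 in the Ptpn2-null IFNg libraries. No 2 of the 4 groups overlapped. The log2 difference with IFNg was 1.01 ± 0.04 in control and 0.47 ± 0.04 in Ptpn2-null cells. By library totals the KRT20 differences were 0.75 and 0.18, smaller and in the same direction.

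ANXA10 differed between genotypes already under vehicle. It held 47.7 and 52.0 CPM in control cells under vehicle, 18.6 and 21.8 under IFNg, 32.0 and 29.6 in Ptpn2-null cells under vehicle, and 4.88 and 4.79 under IFNg. All 4 groups were separate, with the Ptpn2-null IFNg libraries lowest. The log2 difference with IFNg was -1.30 ± 0.11 in control and -2.67 ± 0.15 in Ptpn2-null cells. Between genotypes it was -0.69 ± 0.09 under vehicle and -2.06 ± 0.17 under IFNg.

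**Figure D2:**
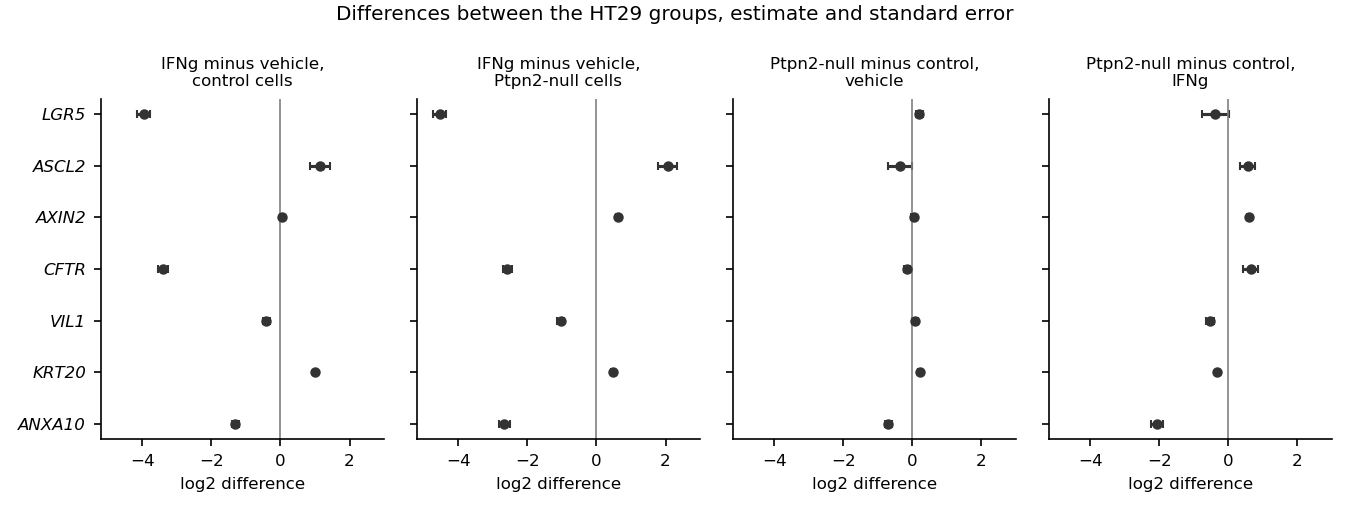
Log2 differences between 2 HT29 groups of 2 libraries each (x axis), for the 7 genes with more than 3 counts in every group; points are edgeR estimates and bars 1 standard error. The IFNg differences reach -4.53 for LGR5 in Ptpn2-null cells and 2.06 for ASCL2, while under vehicle the genotypes differ most in ANXA10, at -0.69.

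Counted over the 9 genes at an adjusted p under 0.05, 2 were called higher and 6 lower with IFNg in control cells, where 59.4% of all tested genes were called, 30.8% higher and 28.7% lower. In control cells 5 were called lower with DESeq2 and without control IFNg replicate 2 or control vehicle replicate 1, the call lost being that of CDX2 or CDH17, and 7 by library totals, where AXIN2 was added. In Ptpn2-null cells 3 were called higher and 6 lower (67.8% of all tested genes, 33.3% higher and 34.5% lower). Under vehicle, KRT20 was called higher and ANXA10 lower in Ptpn2-null cells (21.1% of all tested genes, 12.5% higher and 8.66% lower). Under IFNg, ASCL2, AXIN2 and CFTR were called higher and VIL1, KRT20 and ANXA10 lower in Ptpn2-null cells (41.9%, with 21.3% higher and 20.5% lower). The ASCL2 call was lost with DESeq2, by library totals, and without control IFNg replicate 2 or Ptpn2-null IFNg replicate 1. The CFTR call was lost without control IFNg replicate 2, at a difference of 0.35, and without Ptpn2-null IFNg replicate 2, at 0.61. The responses of AXIN2 and CFTR were called higher and those of VIL1, KRT20 and ANXA10 lower in Ptpn2-null cells (19.1% of all tested genes, 7.37% higher and 11.8% lower). That call of CFTR was lost without control IFNg replicate 2. CDX2 and CDH17, counted among the genes lower with IFNg in each genotype, passed the filter through their vehicle groups alone. All calls in this paragraph come from the libraries on which the genes were picked, and the comparisons share groups, so nothing is read from the counts.

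Other libraries of the series gave tests that the choice in HT29 did not use, although the results in these lines were also known beforehand. In A549, an established human lung adenocarcinoma line with the same guides, dose and time, 4 of the 9 genes passed the filter. AXIN2 held 29.0 and 25.3 CPM in control cells under vehicle, 7.43 and 11.4 under IFNg, 26.6 and 23.4 in Ptpn2-null cells under vehicle, and 4.26 and 5.74 under IFNg. It fell with IFNg, by 1.93 on the log2 scale with genotypes averaged (SE 0.11, adjusted p = 1.8e-63), where 61.7% of 13172 tested genes were called. The change was -1.53 ± 0.15 in control (47.6% of genes called) and -2.34 ± 0.17 in Ptpn2-null cells (53.5%), and these differed (-0.81 ± 0.25, adjusted p = 0.014; 11.3% of genes called). In HT29 the AXIN2 level was higher under IFNg in Ptpn2-null cells and overlapped in control cells; the difference between the lines was not tested. Averaged over treatments, AXIN2 was lower in Ptpn2-null A549 cells (-0.51 ± 0.12, adjusted p = 4.2e-04, with 18.7% of genes called). That call was lost without control IFNg replicate 2 (-0.35). The average joins unlike treatments, as the A549 genotypes overlapped under vehicle and were separate under IFNg. It is therefore not a further result beside the difference of the responses.

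CDH17 was more abundant in the lung line than in the colon line, at 10.8 to 27.5 CPM in A549 against at most 1.47 in HT29. It held 23.0 and 22.6 CPM in control cells under vehicle and 14.9 and 12.2 under IFNg. Ptpn2-null A549 cells held 24.6 and 27.5 CPM under vehicle and 12.2 and 10.8 under IFNg. CDH17 fell with IFNg in A549 (-0.96 ± 0.10, adjusted p = 5.2e-21), with no overlap in either genotype, and it was not called between genotypes (-0.03 ± 0.10, adjusted p = 0.91). VIL1 had 5 and 8 counts in A549 control cells under vehicle, 3 and 0 under IFNg, 13 and 12 in Ptpn2-null cells under vehicle, and 1 and 5 under IFNg. It passed the filter only through the Ptpn2-null vehicle libraries, where it is highest, so no test of it is given. ANXA10 had 4 to 13 counts per A549 library and passed only through the Ptpn2-null IFNg libraries, where it is highest, so no test of it is given either.

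**Figure D3:**
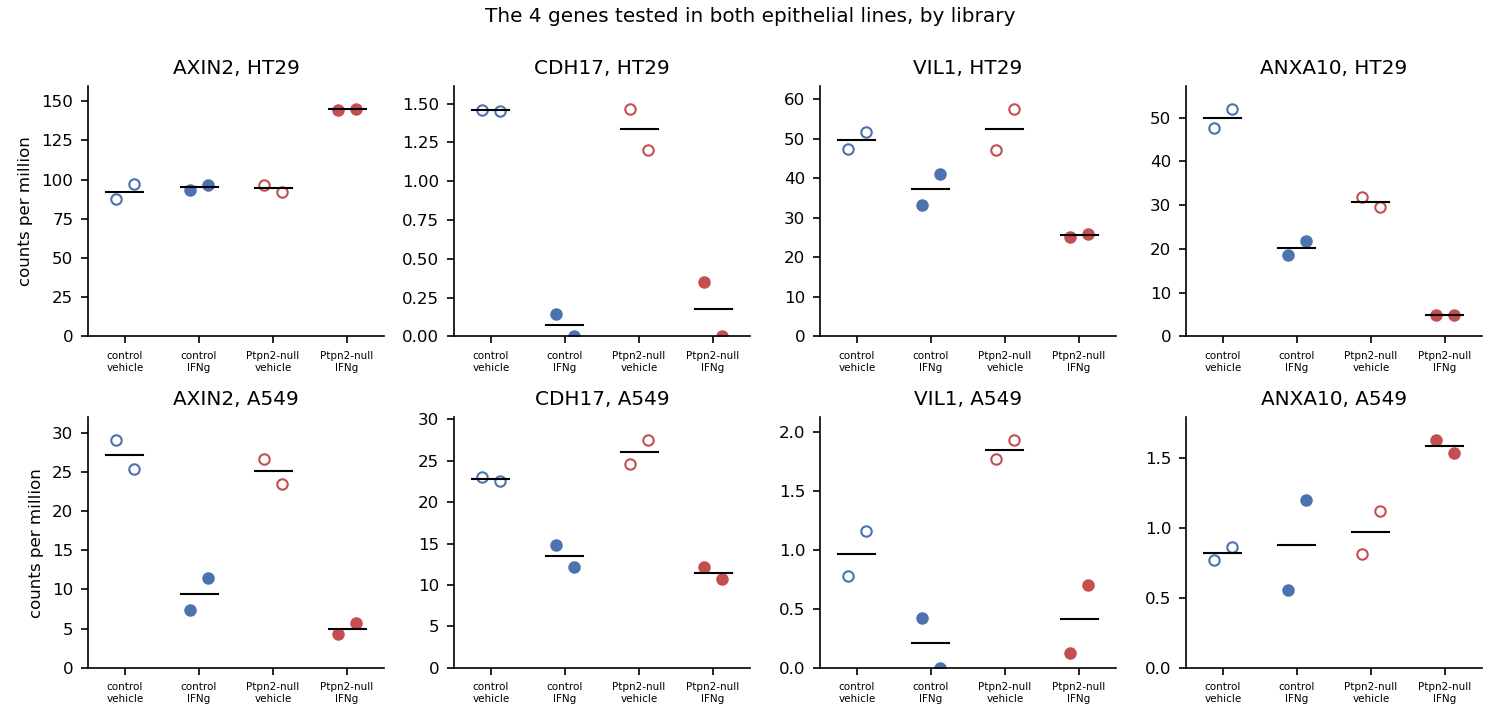
CPM (linear axes from 0, a separate scale per panel) in the 8 HT29 libraries (top) and the 8 A549 libraries (bottom) for the 4 genes that passed the filter in both lines. Open points are vehicle, filled points IFNg, blue control, red Ptpn2-null, bars means of 2 libraries. AXIN2 was lower in the A549 IFNg groups, at 4.26 to 11.4, than in the vehicle groups, at 23.4 to 29.0, while in HT29 its only raised group was Ptpn2-null with IFNg.

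In the melanoma lines 1 gene each passed the filter. AXIN2 in MelJuSo held 4.0 to 6.45 CPM under vehicle and 5.57 to 7.56 under IFNg, and was not called with genotypes averaged (0.28 ± 0.13, adjusted p = 0.079; 48.6% of genes called), but was called without Ptpn2-null vehicle replicate 1 (0.34, adjusted p = 0.039). In the Ptpn2-null MelJuSo libraries alone it was called higher (0.57 ± 0.19, adjusted p = 0.0079; 54.6% of genes called), and in the control libraries it was not (-0.02 ± 0.19, adjusted p = 0.97; 11.5%); the difference of the responses was not called (0.59 ± 0.27, adjusted p = 0.075; 35.5%). Between genotypes, with treatments averaged, AXIN2 was not called in MelJuSo (0.03 ± 0.13, adjusted p = 0.89, with 40% of genes called). Under IFNg its Ptpn2-null libraries lay above the control libraries, at 7.48, 7.56 and 6.96 against 5.67, 6.35 and 5.57 CPM. Under vehicle the genotypes overlapped. The genotypes under IFNg alone were not tested in MelJuSo. ANXA10 in A375 fell with IFNg when guide labels were averaged (-1.25 ± 0.32, adjusted p = 2.2e-04; 72.2% of genes called). The libraries labelled control held 2.53 and 3.54 CPM under vehicle and 0.637, 0.128 and 0.842 under IFNg, while those labelled Ptpn2-null held 1.92, 1.26 and 1.12 under vehicle and 1.34, 1.90 and 1.25 under IFNg. The ANXA10 change was -2.53 ± 0.47 in the libraries labelled control (adjusted p = 6.0e-07; 66% of genes called) and 0.04 ± 0.41 in those labelled Ptpn2-null (adjusted p = 0.95; 64.8%), and these differed (2.57 ± 0.64, adjusted p = 3.2e-04; 47.1%). The PTPN2 level of the A375 vehicle libraries goes against their guide labels, so no genotype is read from this difference. ANXA10 had few counts in A375, 1 to 22 per library, with 5, 1 and 5 in the IFNg libraries labelled control. LGR5, ASCL2, CFTR, CDX2 and KRT20 did not pass the filter in A549, A375 or MelJuSo and were not tested there.

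Other genes of the Wnt pathway both rose and fell with IFNg in HT29. Over all tested genes, 30.8% rose and 28.7% fell with IFNg in control cells, and 33.3% rose and 34.5% fell in Ptpn2-null cells. The IFNg counts of each list below stand against these shares. Of 16 tested Wnt target and feedback genes beside the described ones, 6 rose and 4 fell with IFNg in control cells, and 7 rose and 6 fell in Ptpn2-null cells; by library totals the counts were 2 and 8, and 4 and 10. Their median log2 change was 0.09 in control and 0.10 in Ptpn2-null cells, against -0.0047 and -0.04 over all tested genes. EPHB3, a receptor kinase that positions crypt cells, fell from 5.58 and 5.21 to 1.02 and 1.14 CPM in control cells (-2.30 ± 0.36, adjusted p = 1.5e-07). CCND1, cyclin D1, rose from 198 and 190 to 430 and 416 CPM (1.12 ± 0.05, adjusted p = 2.6e-30). PROX1, a homeobox gene switched on by Wnt in colorectal tumours, was higher in Ptpn2-null than in control cells under IFNg, at 8.36 and 8.34 against 2.32 and 1.57 CPM (2.09 ± 0.29, adjusted p = 2.6e-08).

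The secreted Wnt inhibitor DKK1 responded in opposite directions in the genotypes. It held 13.0 and 11.4 CPM in control cells under vehicle and 18.4 and 17.5 under IFNg, and 18.2 and 16.1 in Ptpn2-null cells under vehicle against 10.1 and 7.26 under IFNg. It rose in control cells (0.56 ± 0.15, adjusted p = 0.0011), a call lost by library totals (0.30, adjusted p = 0.072), and fell in Ptpn2-null cells (-0.96 ± 0.16, adjusted p = 3.2e-07). The difference of the DKK1 responses was -1.52 ± 0.22 (adjusted p = 1.6e-07). Of the 19 tested core components of the pathway, 6 rose and 5 fell with IFNg in each genotype, with medians of 0.03 and 0.01; by library totals 3 rose and 11 fell in control and 2 rose and 13 fell in Ptpn2-null cells. FZD5, a Wnt receptor, rose by 0.90 ± 0.06 and its co-receptor LRP6 fell (-0.96 ± 0.08) in control cells (adjusted p = 6.6e-19 and 1.3e-16). Under vehicle, 2 of the 19 rose and 0 fell in Ptpn2-null against control cells, with 17 not called, where 12.5% of all tested genes rose and 8.66% fell.

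Among 9 tested stem and progenitor markers other than LGR5 and ASCL2, 2 rose and 3 fell with IFNg in control cells, and 2 rose and 4 fell in Ptpn2-null cells (medians -0.06 and 0.05). By library totals 0 rose and 5 fell in each genotype. CDCA7, a gene of dividing crypt cells, held 121 and 125 CPM in control cells under vehicle and 45.4 and 41.8 under IFNg, and 85.2 and 92.7 against 20.4 and 18.7 in Ptpn2-null cells. It fell in both genotypes (-1.49 ± 0.07 and -2.17 ± 0.09, adjusted p = 7.3e-26 and 3.9e-30). LRIG1, a membrane inhibitor of ERBB receptors found in crypt stem cells, fell as well (-1.43 ± 0.10 and -1.90 ± 0.12, adjusted p = 2.6e-18 and 1.3e-21). OLFM4 and MSI1 had 0 counts in all 8 libraries. Of 12 proliferation genes, 9 fell and 2 rose with IFNg in control cells and all 12 fell in Ptpn2-null cells (medians -0.43 and -0.87). Among all tested genes 28.7% fell in control and 34.5% in Ptpn2-null cells. The part of the proliferation genes in the stem cell gene values was not tested.

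Intestinal transcription factors moved in both directions. Of 16 tested beside CDX2, 4 rose and 9 fell with IFNg in control cells and 6 rose and 10 fell in Ptpn2-null cells, with medians of -0.53 and -0.55; over all tested genes 28.7% fell in control and 34.5% in Ptpn2-null cells. By library totals 2 of the 16 rose and 11 fell in control and 3 rose and 10 fell in Ptpn2-null cells. PPARG, a nuclear receptor that is abundant in colonocytes, fell in Ptpn2-null cells from 174 and 181 to 47.3 and 51.1 CPM (-1.86 ± 0.06, adjusted p = 5.7e-34). HNF4A, a nuclear receptor that drives enterocyte genes, was lower in Ptpn2-null than in control cells under IFNg, at 10.3 and 12.5 against 25.6 and 29.2 CPM (-1.28 ± 0.14, adjusted p = 2.3e-11).

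KLF4 and ELF3, factors of differentiating epithelium, rose in both genotypes. KLF4, found in goblet and surface cells, went from 5.18 and 6.55 to 320 and 317 CPM in control cells (5.75 ± 0.09, adjusted p = 1.9e-52) and from 13.2 and 11.6 to 290 and 303 CPM in Ptpn2-null cells (4.57 ± 0.07, adjusted p = 5.6e-51). ELF3, an epithelial ETS factor, rose by 1.30 ± 0.05 in control and 1.54 ± 0.05 in Ptpn2-null cells (adjusted p = 3.8e-33 and 1.3e-37). GATA4 and ISX had 0 counts in all 8 libraries.

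The absorptive colonocyte genes split. Beside KRT20 and CDH17, 7 of 11 tested rose and 3 fell with IFNg in control cells, and 5 rose and 3 fell in Ptpn2-null cells (medians 0.28 and 0.08); by library totals 4 rose and 4 fell, and 4 rose and 6 fell. CEACAM5 (CEA), a surface glycoprotein of the colon and a tumour marker, went from 3.98 and 4.36 to 98.3 and 96.1 CPM in control cells and from 3.46 and 2.17 to 220 and 227 CPM in Ptpn2-null cells (4.53 ± 0.12 and 6.28 ± 0.11, adjusted p = 3.5e-39 and 1.6e-49). Its relative CEACAM6 rose by 3.77 ± 0.08 and 5.04 ± 0.09 (adjusted p = 1.5e-43 and 5.3e-49). PHGR1, a small protein of intestinal epithelium, fell from 7.17 and 8.97 to 1.31 and 1.14 CPM in control cells (-2.71 ± 0.32, adjusted p = 6.2e-11). LGALS4, the gut lectin galectin-4, was 207 and 217 CPM in control cells under vehicle, 85.5 and 92.5 under IFNg, 182 and 183 in Ptpn2-null cells under vehicle and 60.1 and 64.1 under IFNg, and was lower in Ptpn2-null cells under IFNg (-0.52 ± 0.07, adjusted p = 5.1e-09). CA1, MS4A12, GUCA2B, AQP8, SI and TMIGD1, genes of mature colonic or small intestinal cells, had 0 counts in all 8 libraries.

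The partners of VIL1 in the brush border, the microvilli-covered surface, also moved both ways. Of 9 tested, 3 rose and 4 fell with IFNg in control cells and 3 rose and 5 fell in Ptpn2-null cells (medians 0.0021 and -0.20). ANKS4B, a scaffold of the tip links between microvilli, fell from 8.76 and 8.97 to 1.16 and 1.71 CPM in control cells (-2.61 ± 0.31, adjusted p = 6.9e-11). CDHR5, a cadherin of the same tip links, rose from 5.84 and 8.97 to 20.3 and 18.0 CPM (1.36 ± 0.17, adjusted p = 7.1e-10). EPS8, an actin-capping protein of microvilli, rose by 0.77 ± 0.04 in control and 0.64 ± 0.04 in Ptpn2-null cells (adjusted p = 7.5e-25 and 9.5e-22).

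Ion transport genes listed beside CFTR also moved in both directions. Of 12 tested, 4 rose and 7 fell with IFNg in control cells and 4 rose and 6 fell in Ptpn2-null cells (medians -0.76 and -0.37), where 30.8% and 33.3% of all tested genes rose and 28.7% and 34.5% fell. By library totals 2 rose and 7 fell in control and 3 rose and 7 fell in Ptpn2-null cells. SLC12A2, the basolateral chloride importer NKCC1, fell in Ptpn2-null cells from 677 and 701 to 318 and 296 CPM (-1.16 ± 0.04, adjusted p = 7.9e-34). ANO1, the calcium-activated chloride channel, fell in Ptpn2-null cells from 429 and 411 to 118 and 112 CPM (-1.86 ± 0.05, adjusted p = 4.6e-41). In control cells the same 2 genes went from 688 and 713 to 345 and 358 CPM and from 415 and 402 to 190 and 195 CPM.

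Between genotypes under IFNg, 5 of these 12 were higher and 3 lower in Ptpn2-null cells (21.3% and 20.5% of all tested genes). SLC26A9 and KCNQ1 were among the higher ones, and ANO1 (-0.74 ± 0.05, adjusted p = 1.8e-18) and SLC12A2 (-0.19 ± 0.04, adjusted p = 2.0e-04) among the lower. SLC26A9, an apical chloride channel, held 3.19 and 2.42 CPM in control cells under vehicle, 4.50 and 4.28 under IFNg, 2.93 and 3.37 in Ptpn2-null cells under vehicle and 18.8 and 19.9 under IFNg. The SLC26A9 genotypes differed by 2.13 ± 0.19 under IFNg (adjusted p = 2.8e-14) and their responses by 1.96 (interaction). KCNQ1, a basolateral potassium channel, was 6.04 and 6.33 CPM in Ptpn2-null and 1.16 and 3.14 CPM in control cells under IFNg (1.51 ± 0.32, adjusted p = 8.5e-05). The KCNQ1 control libraries lay far apart, and its interaction of 1.47 became 0.97 (adjusted p = 0.13) without control IFNg replicate 1.

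**Figure D4:**
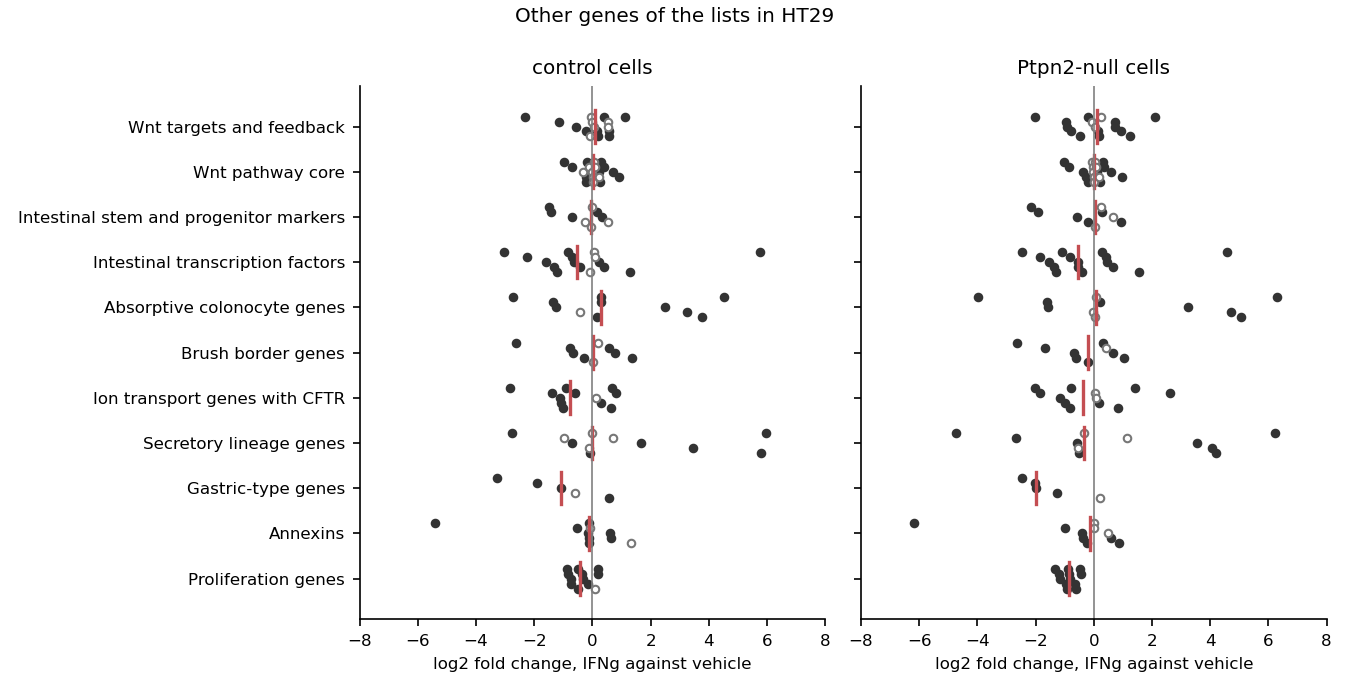
Log2 fold change with IFNg of the tested genes of 11 lists other than the 9 described genes, in HT29 control (left) and Ptpn2-null cells (right); filled points passed an adjusted p under 0.05, open points did not, and the red bar is the list's median. A gene with few counts is drawn at its fitted value, and a gene may stand in more than 1 list. Medians of the Wnt lists lie near 0 (0.09 and 0.03 in control cells), that of the gastric-type genes at -1.07 and -2.0.

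Transmembrane mucins rose the most within the secretory list, of which 4 of 11 tested rose and 3 fell in control cells and 4 rose and 4 fell in Ptpn2-null cells (medians -1.0e-04 and -0.34). MUC13 went from 40.6 and 38.7 to 430 and 437 CPM in control cells and from 38.5 and 40.4 to 661 and 667 CPM in Ptpn2-null cells, and was higher in Ptpn2-null cells under IFNg (0.62 ± 0.04, adjusted p = 1.2e-20). MUC1 went from 0.664 and 2.67 to 101 and 112 CPM in control cells (5.95 ± 0.19, adjusted p = 7.1e-21). MUC17 was lower in Ptpn2-null than in control cells under IFNg, at 11.6 and 11.7 against 31.2 and 33.1 CPM (-1.46 ± 0.15, adjusted p = 9.3e-13). CHGB, NEUROD1, DEFA5 and DEFA6, genes of enteroendocrine and Paneth cells, had 0 counts in all 8 libraries.

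ANXA10 was set beside gastric-type genes and the other annexins. Of 5 tested gastric-type genes, 1 rose and 3 fell with IFNg in control cells and 4 fell and 0 rose in Ptpn2-null cells (medians -1.07 and -2.0, or -2.02 with genes of few counts at their ratio). AQP5, a water channel, went from 55.1 and 59.7 to 13.4 and 17.3 CPM in control cells (-1.91 ± 0.11, adjusted p = 8.2e-23) and from 53.1 and 58.7 to 9.40 and 11.1 CPM in Ptpn2-null cells. CTSE, the gastric protease cathepsin E, was 5.52 and 5.13 CPM in control and 2.79 and 2.47 CPM in Ptpn2-null cells under IFNg (-1.0 ± 0.28, adjusted p = 0.0029). CLDN18, VSIG1, GKN1 and GKN2 had 0 counts in all 8 libraries.

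Of 10 other annexins tested, 2 rose and 6 fell with IFNg in control cells and 2 rose and 5 fell in Ptpn2-null cells (medians -0.11 and -0.11). ANXA13, the intestine-enriched annexin, had 95 and 108 counts in control cells under vehicle, 2 and 2 under IFNg, 48 and 58 in Ptpn2-null cells under vehicle, and 1 and 0 under IFNg. It fell in control cells (-5.41 ± 0.39, adjusted p = 1.3e-18). In Ptpn2-null cells ANXA13 was 89.6-fold lower (95% counting interval 15.7 to 3572), and under vehicle it was lower than in control cells (-1.11 ± 0.19, adjusted p = 8.3e-06), as ANXA10 was. ANXA5 fell by 0.53 ± 0.05 on the log2 scale in control cells and by 1.01 ± 0.05 in Ptpn2-null cells (adjusted p = 1.4e-15 and 4.6e-27).

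Markers of other cell types were read in the same libraries. The summed CPM of 6 leukocyte markers was 21.5 to 24.2 in control cells under vehicle, 65.2 to 66.9 under IFNg, 37.8 to 38.2 in Ptpn2-null cells under vehicle and 129 to 135 under IFNg, mostly from CD14 and CD68; their part in the results was not tested. PTPRC and CD3E, which define leukocytes and T cells, did not exceed 2 counts in any library. Of the 7 fibroblast markers COL1A2, COL3A1 and DCN were at 0, and the sum did not exceed 4.48 CPM.

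For each described gene, the genes with the most similar pattern were ranked by the root mean square difference of centred log2 CPM over the 8 libraries, among 6222 genes. LGR5 was closest to LOXL1 (0.34), ASCL2 to DECR1 (0.18), AXIN2 to NUMB (0.04), CFTR to KLF15 (0.17) and VIL1 to OSBPL1A (0.09). KRT20 was closest to DCLRE1C (0.06), ANXA10 to LOC100124692 (0.23), CDX2 to WNK4 (0.36) and CDH17 to CERK (0.25). These libraries share depth, scaling and groups, so closeness describes the pattern over the 4 groups and nothing more. Second in order were ZDHHC8P1 for LGR5, CREM for ASCL2, CAPN5 for AXIN2, LOC100287616 for CFTR, HNRNPA1 for VIL1, USP13 for ANXA10, FAM172A for CDX2 and OVOL2 for CDH17.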

How the data were processed

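The authors deposited raw read counts per gene, whole numbers, from poly(A) paired-end libraries. Per the submitters' processing notes they used bcl2fastq 2.17.1.14, Trimmomatic 0.33, Bowtie2 2.2.4, HTSeq 0.6.1p1 and DESeq2, on hg19 for human cells. Annotation and strand setting: not given in the sources used here. Hence genes that overlap or have near-identical copies are uncertain. Every HT29, A549, A375 and MelJuSo library column was matched to its labels. B16 was not used here.

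Each line was fitted separately in edgeR 4.0.16 (limma 3.58.1, R 4.3.3): filterByExpr by group, TMM, robust dispersions, 1 mean per group, the quasi-likelihood F test, and Benjamini-Hochberg adjustment over all tested genes of the line (threshold 0.05). All 4 HT29 groups shared 1 fit. Standard errors were derived from the fold change and its F value (|log2 fold change| over root F). CPM uses TMM-scaled totals. Folds with 0 counts in a group are bounds against 3 counts over the group, and those with 1 to 3 counts carry a 95% exact binomial interval. The fit was also run on simulated HT29 counts that lacked the split of scaling factors between treatments, so nothing about scaling is read from it.

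The 9 genes, the gene lists and the alternatives were chosen with earlier results of these data known. Named beside the 9 genes and PTPN2 were 6 interferon response genes, for each list and HT29 comparison of 2 groups at most 2 called genes each way, by size of change, with no overlap and mean log2 CPM of at least 1, and 2 genes of like pattern per described gene (SD of at least 0.25). Without the genes of like pattern, the rule named 80 genes, PTPN2 included. Those whose values the report prints were picked from them after the values were seen. Those with a called interaction are given in the closing section, except that a few genes are not reported here. Genes named at 0 counts, and marker genes, stand outside the rule.

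Alternatives were RLE size factors, no filter, DESeq2 1.42.0, only the compared groups, a replicate block and leaving out each library. Library totals without scaling factors and contrasts within each guide label in A549, A375 and MelJuSo were added after the data were seen. No pair of HT29 replicates held identical values, and each differed beyond sampling noise (mean chi-square per gene 1.31 to 2.03). No human sequence table was used, so no sequences, coordinates or levels per length are given.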

Additional observations from a re-analysis of the deposited data

Results flagged for a closer look

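In HT29, 43 of the 80 genes that the rule named beside the 9 described genes and those of like pattern responded to IFNg differently in Ptpn2-null than in control cells, by edgeR's interaction term at an adjusted p under 0.05 over all genes (19.1% of all tested genes were called). Of the 80, 77 had been named for large called changes in the same libraries, so their share is not independent of that choice. Positive log2 values mean a higher response in Ptpn2-null cells. Of the 43, 13 were positive, and those reported are as follows. Among colonocyte, secretory and transport genes these were SLC26A9 at 1.96, CEACAM5 at 1.75, KCNQ1 at 1.47, CEACAM6 at 1.27, MUC13 at 0.62 and CLCN2 at 0.59. Among transcription factors they were HNF4G at 0.60 and ELF3 at 0.24. Among Wnt components and annexins they were LGR4 at 0.54, FZD7 at 0.45, GSK3B at 0.25 and ANXA7 at 0.22.

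The other 30 were negative. Of those reported, interferon response genes were GBP1 at -2.43, CXCL10 at -1.57, B2M at -0.67 and IRF1 at -0.59, each of which was already higher in Ptpn2-null cells under vehicle. For CXCL10, B2M and IRF1 a negative value does not mean a lower level in Ptpn2-null cells under IFNg, whereas GBP1 was lower. There, CXCL10 held 11842 and 11881 CPM in Ptpn2-null against 5900 and 5989 in control cells. B2M held 10086 and 9778 against 9224 and 9130, IRF1 874 and 899 against 866 and 845, and GBP1 1921 and 1862 against 2109 and 2016. Under vehicle, control cells had only 14 and 14 counts of CXCL10 and 8 and 12 of GBP1. Wnt and stem cell genes were DKK1 at -1.52, CDCA7 at -0.68, LRIG1 at -0.47 and CCND1 at -0.38. Transcription factors were KLF4 at -1.18, HNF4A at -0.87 and PPARG at -0.65. Epithelial and gastric-type genes were CTSE at -0.95, AQP5 at -0.55, LYZ at -0.43, LGALS4 at -0.31, EZR at -0.25 and KRT19 at -0.24. Transport genes were ANO1 at -0.78 and SLC12A2 at -0.17. Annexins were ANXA5 at -0.47, ANXA1 at -0.28 and ANXA2 at -0.25. Proliferation genes were RRM2 at -0.78, CDK1 at -0.71, PCNA at -0.67, TOP2A at -0.48, CCNB2 at -0.37 and PLK1 at -0.23. The calls of ANXA2, ANXA7, AQP5, CCNB2, CTSE, FZD7, GSK3B, KCNQ1, LGALS4, LRIG1, PLK1 and SLC12A2 were lost both with DESeq2 and without at least 1 library, and that of ELF3 without control vehicle replicate 2 or Ptpn2-null vehicle replicate 1.

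In Ptpn2-null cells under IFNg, AXIN2 and ANXA10 lay above every vehicle library in some lines and below every one in others. AXIN2 under IFNg had a mean of 145 CPM in HT29 and 7.33 in MelJuSo, above every vehicle library of the same genotype, and of 5 in A549, below every such library. ANXA10 under IFNg had a mean of 4.83 CPM in HT29, below its vehicle libraries, and of 1.59 in A549, above them, on only 13 and 11 counts. In A549 it passed the filter through that group alone, so no test of its change is given. These differences between lines were not tested. Within A549, the AXIN2 response differed between genotypes by -0.81 on the log2 scale (adjusted p = 0.014, edgeR). Within A375, the ANXA10 response differed between guide labels by 2.57 (adjusted p = 3.2e-04, edgeR, with 47.1% of tested genes called). It rests on 1 to 22 counts per library, in a line whose vehicle libraries go against their labels.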

How the results depend on the processing

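Counts of called genes stayed within 1.5 times of those reported in 139 of 145 alternative fits of a comparison. With DESeq2 the count between genotypes was 1339 under vehicle (2653 reported), 3468 under IFNg (5258), 1249 for the interaction (2403), and 1022 for genotype in A549 (2465). Leaving out 1 library gave 6474 to 7659 for IFNg in HT29 control cells, 7734 to 8578 in Ptpn2-null cells, 1626 to 3033 between genotypes under vehicle (1626 without control vehicle replicate 1, 1746 without Ptpn2-null vehicle replicate 2), 4085 to 5243 under IFNg, and 1831 to 2316 for the interaction. With 1 library left in a group, that library is assumed to vary like the other groups. The replicate block, added although the shared numbers do not pair the samples (correlation of deviations 0.019 to 0.057, 2 numbers), gave 7563, 8602, 2870, 5409 and 2525.

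By library totals, the IFNg change of these genes turned in control cells: CD44 -0.12, HNF4G -0.20, LGR4 -0.0578, LRP5 -0.18, MYC -0.22, PCNA -0.0611 and RRM2 -0.077. In Ptpn2-null cells CD44 -0.24, DVL1 -0.22, GSK3B -0.26, KRT19 -0.25, LRP5 -0.17, RGMB -0.0026 and SCNN1A -0.12 turned. With TMM, the ANXA10 change in A375 was 0.0364 (not called) when only the libraries labelled Ptpn2-null were used. Calls of EPHB3, DKK1, LRIG1 and HNF4A between genotypes under vehicle, of AQP5 under IFNg, and of the interactions of LRIG1, CTSE, AQP5 and SLC12A2 were lost without at least 1 library. Between genotypes under IFNg, ASCL2 ranged from 0.31 to 0.85 and CFTR from 0.35 to 1.01 over the settings. With 2 libraries a group, genes of few counts (CDX2, CDH17) limit what can be seen.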
